A study of Mus musculus with 3 samples.

Results

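CD8 T cells of MC38 tumours were selected for transcripts of Ifitm1, which codes for an interferon-induced transmembrane protein, together with accessory genes. A barcode was kept with at least 500 genes, at least 1000 unique molecular identifiers (UMIs, each standing for 1 captured transcript) and under 10% mitochondrial UMIs. It was gated as a non-cycling CD8 cell if it held at least 1 UMI of Cd3d, Cd3e or Cd3g and at least 1 of Cd8a or Cd8b1, none of Cd4 or Foxp3, and at most 1 of Mki67 and Top2a together. Members also held at least 1 UMI of Ifitm1 and of at least 2 of the 4 accessory genes Napsa, Plac8, Gstp3 and Itga1. The members numbered 6326 of 17895 gated CD8 cells, of 25920 kept barcodes and of 27340 barcodes in all. The working name of these cells was built on Ifitm1, Itga1 and Napsa, and the data bore it out only in part. Itga1 was seen in 45.1% of members in PBS, 50.5% in mix and 61.6% in homo. Napsa was seen in 33.4%, 45.0% and 51.5% of members in the same order. The cells are therefore called Ifitm1-gated cells or members here.

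MC38 is a mouse colon carcinoma line. Tumours were taken at day 15 with 5 days of treatment, digested, and sorted for CD3 before droplet sequencing of transcript 3' ends. The 3 libraries carry the labels PBS, mix and homo, and each group is 1 library. PBS is a saline buffer, and the series title names interleukin-2 directed to LAG3, but the labels do not say what mix and homo received. All 3 share the tumour line, the day, the treatment length and the sort. Mouse strain, age, sex and the number of animals pooled per library are not given in the sources used here. With 1 library per group, no difference between libraries could be tested. The intervals given for such differences cover counting error only.

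Ifitm proteins sit in cell membranes and are best known for blocking the entry of enveloped viruses into cells. Ifitm1, Ifitm2 and Ifitm3 lie close together on mouse chromosome 7 and are induced by interferons in many cell types. Itga1 codes for the alpha chain of a collagen-binding integrin (CD49a) carried by resident memory T cells in epithelia and by some tumour-infiltrating T cells. Napsa codes for an aspartic protease of lysosomes, Plac8 for a small cysteine-rich protein made by many leukocytes, and Gstp3 for a glutathione transferase.

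The windows from 250 bases before to 50 after the start of the 3 Ifitm genes are shown because the members were chosen on Ifitm1 and its neighbours were higher with it. They are RefSeq sequences of build GRCm38.p6, read 5' to 3' on the strand of each gene. Capitals mark a GAAA, 2 bases of any kind and a further GAAA, a spacing that interferon-regulated factors recognise, searched on both strands. The windows span chr7:140967826-140968125 on the plus strand for Ifitm1, chr7:140955912-140956211 on the minus strand for Ifitm2, and chr7:141010695-141010994 on the minus strand for Ifitm3.
Ifitm1: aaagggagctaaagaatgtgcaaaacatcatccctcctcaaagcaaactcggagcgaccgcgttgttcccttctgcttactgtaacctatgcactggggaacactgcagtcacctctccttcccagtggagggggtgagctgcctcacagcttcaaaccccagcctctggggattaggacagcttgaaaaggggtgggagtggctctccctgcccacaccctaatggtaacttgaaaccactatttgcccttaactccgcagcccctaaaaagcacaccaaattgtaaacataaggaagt
Ifitm2: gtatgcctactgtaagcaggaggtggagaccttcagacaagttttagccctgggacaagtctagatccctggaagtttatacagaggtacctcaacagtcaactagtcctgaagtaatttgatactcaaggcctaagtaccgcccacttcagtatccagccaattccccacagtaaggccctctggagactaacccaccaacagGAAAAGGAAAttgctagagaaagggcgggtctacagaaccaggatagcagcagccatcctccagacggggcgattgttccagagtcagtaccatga
Ifitm3: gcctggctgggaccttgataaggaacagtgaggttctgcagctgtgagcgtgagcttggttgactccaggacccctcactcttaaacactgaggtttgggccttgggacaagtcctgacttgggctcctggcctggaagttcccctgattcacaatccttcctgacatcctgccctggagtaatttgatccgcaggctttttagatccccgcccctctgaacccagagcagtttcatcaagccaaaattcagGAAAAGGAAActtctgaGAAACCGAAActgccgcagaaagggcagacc
The Ifitm3 window held 2 matches, beginning at +3 and +20 from the start, and the Ifitm2 window held 1, at -46. The Ifitm1 window held 0. Among 32851 promoter windows of the same length, 3.44% held a match. A match is a description of letters, and its absence says only that these letters are not in this window.

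The share of members among gated CD8 cells was close in PBS and mix and was highest in homo. In PBS 1562 of 6838 cells passed (22.8%, exact 95% interval 21.9 to 23.9). In mix 1238 of 5239 passed (23.6%, 22.5 to 24.8), and in homo 3526 of 5818 (60.6%, 59.3 to 61.9). The intervals of PBS and mix overlapped, and that of homo lay above both. The homo barcodes were also deeper, with a median of 6582 UMIs against 4748 in PBS and 4955 in mix, and a deeper cell passes a limit of 1 UMI more easily. With each barcode thinned to 2000 UMIs and the whole gate applied anew, the shares came to 11.7% for PBS, 11.7% for mix and 38.1% for homo (36.9 to 39.3), with homo again the highest. These were not the same cells. Shallower barcodes were left out, and barcodes that lost their UMIs of Cd4, Foxp3, Mki67 or Top2a could enter. The thinned gate held 6987, 5387 and 6218 CD8 cells. How far cycling barcodes among them moved the shares was not tested. Among cells with 4000 to 8000 UMIs, 24.3% passed in PBS, 24.1% in mix and 56.8% in homo. Regulatory T cell barcodes, marked by Foxp3 and Cd4, gave the share in cells of another type. The Ifitm1 and accessory limits were passed by 3 of 384 in PBS and 1 of 405 in mix. In homo 2 of 49 passed (4.08%, 0.498 to 13.98). Whether their UMIs of these genes were free transcripts or the cells' own was not tested. Those cells were shallower, with median depths of 3770, 4009 and 3526 UMIs. After thinning and gating anew none of 200, 206 and 23 passed, which allows shares of up to 1.83%, 1.78% and 14.8% by the exact interval.

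**Figure D1:**
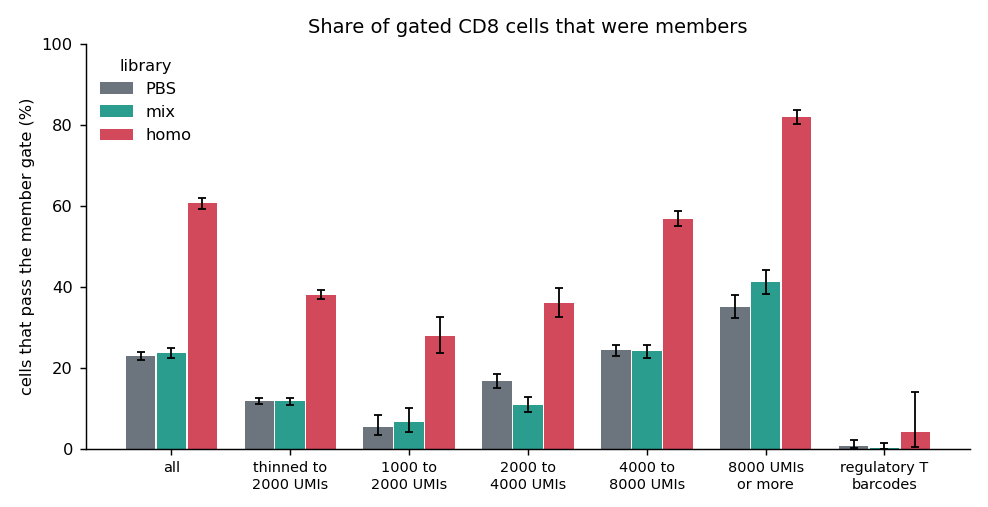
Share of cells that pass the Ifitm1 and accessory gate (y axis, percent) per library, among all gated CD8 cells, after thinning to 2000 UMIs and gating anew, by range of UMIs per cell, and among regulatory T cell barcodes. Bars are shares and error bars exact 95% intervals of counting error. Among CD8 cells homo stands above PBS and mix in each setting, with 60.6% over all cells and 38.1% thinned.

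Ifitm1 was abundant in the members, and not a matter of single transcripts. The values of the 5 rule genes chose the cells, so they are a description. The median member held 19 Ifitm1 UMIs in PBS (quartiles 7 and 39), 20 in mix (8 and 41) and 29 in homo (13 and 57). Ifitm1 was not seen at all in 64.9% of the gated CD8 cells of PBS, 66.8% of those of mix and 29.3% of those of homo. Summed over members and scaled to the total UMIs of those cells as CPM, the usual common total for counts, Ifitm1 reached 4147 CPM in PBS, 3913 in mix and 4813 in homo. In regulatory T cell barcodes it was at 7.61, 8.53 and 93.0 CPM. Since members were required to hold Ifitm1, these levels are conditioned on it.

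**Figure D2:**
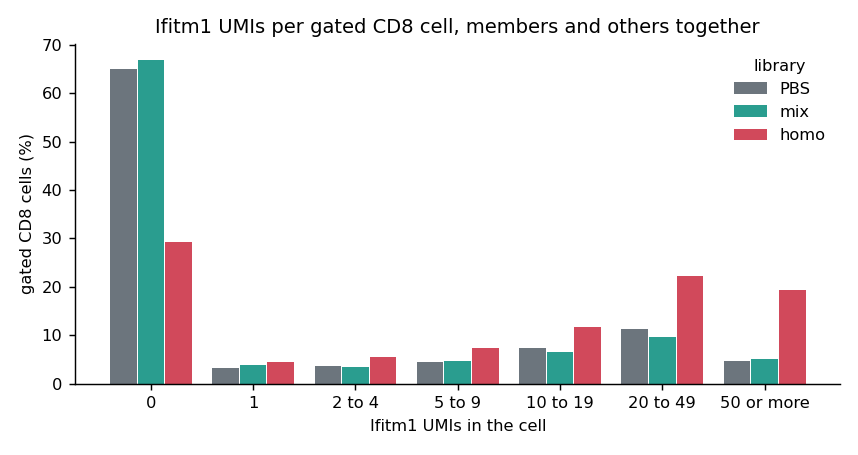
Bars give the share of gated CD8 cells, members and others together (y axis, percent), by their number of Ifitm1 UMIs (x axis) in each library. Cells with 0 Ifitm1 UMIs make up 64.9% in PBS, 66.8% in mix and 29.3% in homo.

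The accessory genes set members apart by less than Ifitm1 did. Plac8 was nearly general in the CD8 cells: it was seen in 95.7% of PBS members and 78.8% of the other gated CD8 cells there. Napsa stood at 87.9, 114 and 138 CPM in members of PBS, mix and homo, and at 47.4, 55.0 and 74.6 CPM in the other cells. Itga1 stood at 101, 108 and 144 CPM in members and at 47.6, 59.8 and 94.1 CPM in the others. Just inside the limit, cells with exactly 2 accessory genes made up 57.6% of members in PBS, 49.6% in mix and 30.1% in homo. All 4 were seen in 8.77%, 14.5% and 26.5%. Just outside it, 677, 409 and 500 cells held Ifitm1 with 1 accessory gene, and their Ifitm1 level was 4859.7, 3410.2 and 4019.7 CPM. Another 2461, 1915 and 1226 cells held at least 2 accessory genes and no Ifitm1.

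Outside the rule genes, members carried more of the granzymes C to G and of the other Ifitm transcripts than the remaining CD8 cells, and far less of the genes of naive, stem-like and recirculating T cells. Sums of members and of other gated CD8 cells were compared within each library with edgeR's quasi-likelihood test, the 3 libraries serving as replicates and as a block. Since each library is a different group, the p-values rest on how the difference varied between groups. Of 12186 genes tested, 574 (4.71%) were higher and 583 (4.78%) lower in members at an adjusted p (Benjamini-Hochberg) under 0.05, 1157 (9.49%) in all. Members were deeper, with medians of 5769, 6823 and 7624 UMIs against 4759, 5075 and 5178. When the other cells were drawn to match members in depth, 177 of 11289 genes were higher and 192 lower. Matching kept 1562 of 5276 other cells in PBS, 1178 of 4001 in mix and 336 of 2292 in homo. The matched fit thus also rested on fewer cells, and the effects of depth and of cell number were not separated. Counts after depth matching for this comparison come from that fit. Without mix, 119 of 12466 genes were higher and 197 lower. Counts for gene lists are to be read against these shares over all genes. Any gene that varies with the 5 rule genes from cell to cell can differ here, so the tests describe what accompanies the gate.

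Gzmc codes for granzyme C, a protease of cytotoxic granules. It stood at 1208 CPM in members of PBS, 1190 in mix and 1328 in homo, and at 509, 334 and 464 CPM in the other cells. The groups did not overlap in level (log2 1.57, SE 0.09, n = 3 libraries, edgeR adjusted p = 1.09e-05). Gzmf, coding for granzyme F, stood at 5310, 5124 and 3543 CPM in members against 3519, 2091 and 1883 CPM (log2 0.97, adjusted p = 0.000459). Its homo members lay barely above the other cells of PBS. Gzmd, Gzme and Gzmg also passed the test, with log2 differences of 1.06, 1.06 and 0.85, but none passed after depth matching, where Gzmg turned to -0.23. These granzymes are close relatives, and reads that fit more than 1 of them could be assigned unevenly. Gzma, coding for granzyme A, did not pass (log2 0.08, adjusted p = 0.675), and lay at 380, 163 and 1079 CPM in members against 292, 202 and 1064 CPM. Of 26 cytotoxic effector genes tested, 11 were higher and 4 lower (median log2 0.15, against -0.0015 over all genes). Of all genes tested, 4.71% were higher and 4.78% lower. After depth matching 5 of the cytotoxic genes were higher and 5 lower, where 177 and 192 of 11289 genes were.

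**Figure D3:**
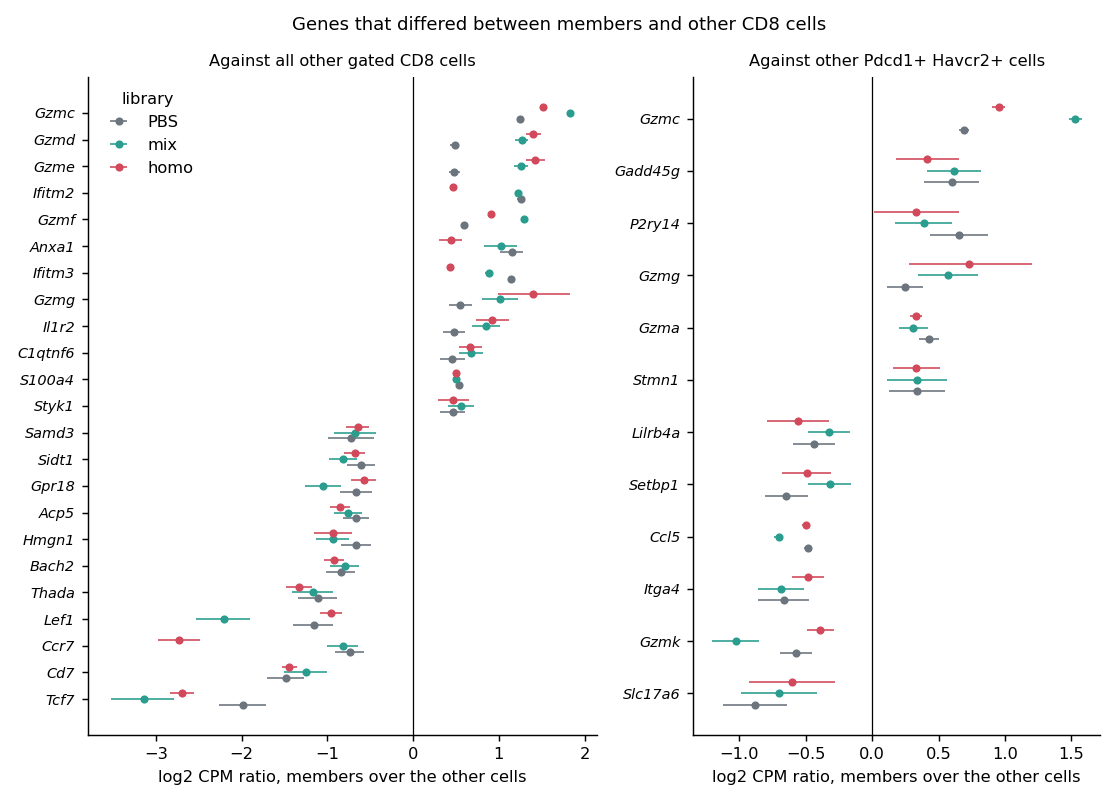
Log2 CPM ratio of members over other cells (x axis) for the named genes, 1 point per library with its exact 95% interval of counting error, against all other gated CD8 cells (left) and against other Pdcd1 and Havcr2 cells (right). The 3 libraries lie on the same side of 0 for each gene, which the rule for naming requires, and Tcf7 lies far below it in each library.

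Ifitm2 and Ifitm3, which like Ifitm1 code for antiviral membrane proteins, were higher in members of each library. Ifitm2 stood at 859, 816 and 1078 CPM in members of PBS, mix and homo against 360, 348 and 783 CPM. The difference was largest in PBS and smallest in homo, where the other cells too were high (log2 1.02, SE 0.12, adjusted p = 0.000967). Ifitm3 stood at 919, 957 and 1045 CPM against 416, 519 and 774 CPM (log2 0.86, adjusted p = 0.000746). For neither gene did the sums of members and of all other cells overlap. Both passed after depth matching, at 0.87 and 0.78. They were not particular to members. Cells outside the gate that held Ifitm1 with 1 accessory gene had Ifitm2 at 850, 701 and 900 CPM. Their Ifitm3 stood at 922, 732 and 838 CPM. Cells with at least 2 accessory genes and no Ifitm1 had Ifitm2 at 355, 392 and 881 CPM. With each cell thinned to 2000 UMIs, Ifitm2 was seen in 65.6%, 62.5% and 74.9% of members and in 26.1%, 25.2% and 48.3% of the others. Ifitm10 did not pass (log2 -0.16, adjusted p = 0.142). Other interferon-stimulated genes did not go with them: of 30 tested, 0 were higher and 16 lower (median log2 -0.18), where 4.71% and 4.78% of all genes were. After depth matching 0 were higher and 3 lower, where 177 and 192 of 11289 genes were. Oasl2, an antiviral synthetase-like gene, was lower by this test (log2 -0.97, adjusted p = 0.00306), as was Iigp1, an interferon-induced GTPase (log2 -0.96, adjusted p = 8.16e-05).

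Naive and stem-like genes were low in members. Tcf7 codes for the transcription factor TCF-1 of naive and stem-like T cells. It stood at 12.7, 6.99 and 19.9 CPM in members of PBS, mix and homo and at 50.2, 61.7 and 129 CPM in the others, with no overlap (log2 -2.56, SE 0.13, adjusted p = 8.63e-06). Of the 20 naive and stem-like genes tested, 0 were higher and 15 lower (median log2 -0.78), among them Lef1 (-1.24), Ccr7 (-1.28) and Bach2 (-0.82). Of all genes tested, 4.71% were higher and 4.78% lower. After depth matching 1 of 19 was higher and 11 lower, where 177 and 192 of 11289 genes were. Tcf7 then stood at -2.13. By number of accessory genes, with no test, Tcf7 in homo members stood at 38.1 CPM with 2, 17.3 with 3 and 10.7 with 4. In PBS members it stood at 16.3, 10.5 and 4.19 CPM, and in mix members at 9.80, 3.903 and 7.07 CPM, so mix did not follow that order. Outside the gate, cells with Ifitm1 and 1 accessory gene had Tcf7 at 20.5, 14.1 and 78.3 CPM in PBS, mix and homo. Those with at least 2 accessory genes and no Ifitm1 had it at 28.4, 24.8 and 97.1 CPM. All remaining cells stood at 98.8, 142 and 289 CPM, so low Tcf7 reached beyond the gate. Cells with more accessory genes were deeper, with medians from 6133 UMIs with 2 to 9325.5 with 4 in homo.

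Several recirculation genes were lower in members, and some residency genes were higher. Of 12 recirculation genes, 0 were higher and 7 lower (median log2 -0.91), among them Klf3, a transcription factor of recirculating lymphocytes (-2.19, adjusted p = 4.74e-05), and Klf2, which keeps T cells in circulation (-0.64, adjusted p = 0.0472). After depth matching 1 of 11 was higher and 4 lower, where 177 and 192 of 11289 genes were. The Klf2 ratio was not alike in the libraries: log2 -0.12 in PBS, -0.59 in mix and -1.43 in homo. Members stood at 225, 141 and 44.7 CPM of Klf2. Cells outside the gate with Ifitm1 and 1 accessory gene stood at 318, 155 and 174 CPM. Those with at least 2 accessory genes and no Ifitm1 stood at 171, 153 and 74.4 CPM, in PBS below members. Of 15 residency genes tested, 5 were higher and 0 lower (median log2 0.18). These included Zfp683, coding for the factor Hobit (0.62, adjusted p = 0.00666), Cxcr6, a chemokine receptor of resident T cells (0.29, adjusted p = 0.000917), and Rgs1, a damper of chemokine signals (0.28, adjusted p = 0.00121). Itgae, coding for the integrin chain CD103, was at 13.3, 3.76 and 2.18 CPM in members against 8.10, 6.66 and 4.77 CPM, and did not pass (adjusted p = 0.841). Without mix, 2 residency genes were higher and 0 lower, where 119 and 197 of 12466 genes were. In the main fit 4.71% of all genes were higher and 4.78% lower.

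Some inhibitory receptor genes were slightly higher in members before depth matching. Pdcd1, coding for PD-1, stood at 639, 637 and 838 CPM in members against 573, 568 and 678.5 CPM in the others (log2 0.25, adjusted p = 0.00656). The ranges overlapped across libraries, and members were higher in each of the 3. Havcr2, coding for TIM-3, and Lag3 passed at 0.35 and 0.20. Such levels were also seen outside the gate. Cells there with Ifitm1 and 1 accessory gene had Lag3 at 686, 812 and 529 CPM, against 666, 680 and 580 in members. Their Havcr2 stood at 220, 244 and 157 CPM, against 219, 218 and 185, and their Pdcd1 at 607, 660 and 733 CPM. Of the 21 genes listed for inhibitory receptors and exhaustion 9 were higher and 3 lower (median log2 0.085). Of all genes tested, 4.71% were higher and 4.78% lower. After depth matching 2 of the listed genes were higher and 4 lower, where 177 and 192 of 11289 genes were. Il2rb, coding for the beta chain of the interleukin-2 receptor, was higher by 0.27 (adjusted p = 0.00142), while 4 of 27 interleukin-2 receptor and STAT5 target genes were higher and 5 lower. Of 15 glycolysis genes 8 were higher and 0 lower, but 1 was higher after depth matching and 1 without mix, where 119 of 12466 genes were. Among innate and NK-associated genes, 9 of 25 were higher and 7 lower (6 and 6 of 23 after depth matching): Fcer1g, a signalling chain of NK and myeloid cells, was higher (0.73, adjusted p = 0.00275), and Klra1 and Klra6, of the Ly49 receptor family, were lower (-3.15 and -2.96).

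Further genes outside these groups set members apart. S100a4, coding for a calcium-binding protein of migrating cells, stood at 1238, 1345 and 1634 CPM in members of PBS, mix and homo against 853, 947 and 1159 CPM (log2 0.55, adjusted p = 1.39e-05), and the groups did not overlap. Anxa1, coding for annexin A1, a phospholipid-binding protein that dampens inflammation, stood at 84.2, 44.5 and 64.6 CPM against 38.0, 21.9 and 47.6 CPM (log2 0.89, adjusted p = 0.00116), with the mix members below the other cells of homo. Il1r2, coding for the decoy receptor of interleukin-1, was higher by 0.76 (adjusted p = 0.000729). Cd7, a surface glycoprotein gene of T and NK cells, stood at 20.3, 17.4 and 67.4 CPM against 56.8, 41.4 and 183 CPM (log2 -1.37, adjusted p = 4.44e-06). It was lower in members of each library, though homo members exceeded the other cells of PBS and mix. Low Cd7 was not particular to members. Cells outside the gate with Ifitm1 and 1 accessory gene had Cd7 at 24.5, 9.71 and 106 CPM. Those with at least 2 accessory genes and no Ifitm1 had it at 50.3, 26.9 and 161 CPM, and all remaining cells at 79.3, 76.9 and 337 CPM. Acp5, a phosphatase gene, Gpr18, a lipid-sensing receptor gene, and Socs3, a damper of cytokine signals, were lower by -0.73, -0.70 and -1.24. Of 18 chemokine and chemokine receptor genes 1 was higher and 7 lower, among them Cxcr4 (-1.57) and Cxcr5 (-2.30), and 1 of 17 was higher and 6 lower after depth matching. Of 21 genes of lysosomes, where the rule gene Napsa acts, 5 were higher and 1 lower, with Cst3, a protease inhibitor gene, at 0.48 and Ctsd, a cathepsin gene, at 0.33, and 3 were higher and 0 lower after depth matching. Of 13 integrin genes other than Itga1, 3 were higher and 1 lower, and Itgb1, coding for the chain that pairs with that of Itga1, was higher by 0.21 (adjusted p = 0.0155). Of 19 TGF-beta pathway genes 0 were higher and 4 lower, and after depth matching 0 and 1 of 17. Beside these list counts, 4.71% of all genes were higher and 4.78% lower, and 177 and 192 of 11289 after depth matching.

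Members with both Pdcd1 and Havcr2 transcripts were then set against the other CD8 cells that also held both. There were 3461 such members and 4009 such other cells. The receptor levels were not equal: Havcr2 was lower in members of PBS, mix and homo (log2 -0.20, -0.13 and -0.18). Pdcd1 stood at -0.014, -0.073 and 0.058. Both genes chose the cells and were not tested. Of 10912 genes tested, 47 (0.431%) were higher and 42 (0.385%) lower in members by edgeR, 89 (0.816%) in all. Without PBS, 20 were higher and 11 lower, and without homo 69 were lower. Members were deeper here too, with medians of 6709, 7766 and 8824 UMIs against 5921, 6347.5 and 6545. With the other cells matched in depth, 48 of 10520 genes were higher and 33 lower. That matching left only 75 other cells in homo. Gzmc stood at 1477, 1574 and 1656 CPM in members of PBS, mix and homo against 915, 544 and 856 CPM, with no overlap (log2 1.08, adjusted p = 6.65e-06). Gzma now passed, at 395, 199.9 and 1258 CPM against 294, 161 and 999 CPM, though its libraries overlapped widely (log2 0.39, adjusted p = 0.000134). Ifitm2 and Ifitm3 were higher by 0.68 (adjusted p = 0.0024) and 0.65 (adjusted p = 0.000986). Ccl5, coding for a chemokine that draws T cells, was lower: it stood at 2272, 1738 and 1654 CPM against 3183, 2832 and 2341 CPM, with no overlap (log2 -0.54, adjusted p = 4.41e-06). Itga4, an integrin chain used in homing, Gzmk, coding for granzyme K, and Eomes, a factor of effector and memory CD8 cells, were lower by -0.56, -0.59 and -0.87.

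The naive and stem-like difference was not called in these Pdcd1 and Havcr2 cells. Tcf7 stood at 7.35, 4.75 and 9.70 CPM in members against 3.43, 6.98 and 21.1 CPM, with opposite directions in PBS and homo (log2 -0.44, adjusted p = 0.691). Before the limit on Pdcd1 and Havcr2 the other cells stood at 50.2, 61.7 and 129 CPM. That limit had already taken most Tcf7 out of them, so this comparison had little room to show the difference. By edgeR 0 of 19 naive and stem-like genes and 0 of 11 recirculation genes passed in either direction. At an unadjusted p under 0.05, 1 of the 19 was higher and 3 lower, and 1 of the 11 was higher and 1 lower. Of 26 cytotoxic effector genes 7 were higher and 2 lower, with a median log2 of -0.037, and of 19 genes for inhibitory receptors and exhaustion 0 were higher and 4 lower, among them Tox (-0.36, adjusted p = 0.00509) and Ctla4 (-0.22, adjusted p = 0.0325). Of all genes tested among these cells, 0.431% were higher and 0.385% lower. The comparison over all CD8 cells and this one share members and libraries, so they are not independent.

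Metallothionein transcripts set members apart in mix and homo but not in PBS. Mt1 and Mt2 code for small proteins that bind zinc and copper and are induced by metals. Mt1 stood at 168 CPM in members of PBS, 213 in mix and 369 in homo, and at 182, 125 and 170 CPM in the other cells. Mt2 stood at 16.3, 27.6 and 63.0 CPM in members and at 19.7, 13.96 and 27.01 CPM in the others. In PBS the other cells were slightly higher, and neither gene passed the test over the 3 libraries (adjusted p = 0.0526 for Mt1 and 0.0501 for Mt2). With cells thinned, Mt1 was seen in 17.5%, 20.5% and 30.4% of members and 15.1%, 10.9% and 15.6% of the others. Their promoter windows, from RefSeq build GRCm38.p6, are shown with matches to TGCACNC or TGCGCNC, the core letters of metal response elements, in capitals on either strand. They span chr8:94178839-94179138 for Mt1 and chr8:94172368-94172667 for Mt2, both on the plus strand.
Mt1: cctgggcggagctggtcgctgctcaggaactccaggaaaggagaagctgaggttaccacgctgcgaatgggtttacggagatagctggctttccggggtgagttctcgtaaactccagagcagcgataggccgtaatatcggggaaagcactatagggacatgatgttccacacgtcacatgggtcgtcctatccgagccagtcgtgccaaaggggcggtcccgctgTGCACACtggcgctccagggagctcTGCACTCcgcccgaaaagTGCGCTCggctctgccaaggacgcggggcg
Mt2: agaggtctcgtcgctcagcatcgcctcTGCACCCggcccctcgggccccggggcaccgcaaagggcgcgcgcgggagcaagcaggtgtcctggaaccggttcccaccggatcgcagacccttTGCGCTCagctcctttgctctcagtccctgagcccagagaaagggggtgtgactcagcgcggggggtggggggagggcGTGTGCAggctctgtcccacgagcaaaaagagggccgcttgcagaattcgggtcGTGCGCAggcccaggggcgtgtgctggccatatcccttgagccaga
Mt1 held 3 matches and Mt2 held 4, where 25.7% of all windows held any and 1.97% held at least 3.

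**Figure D4:**
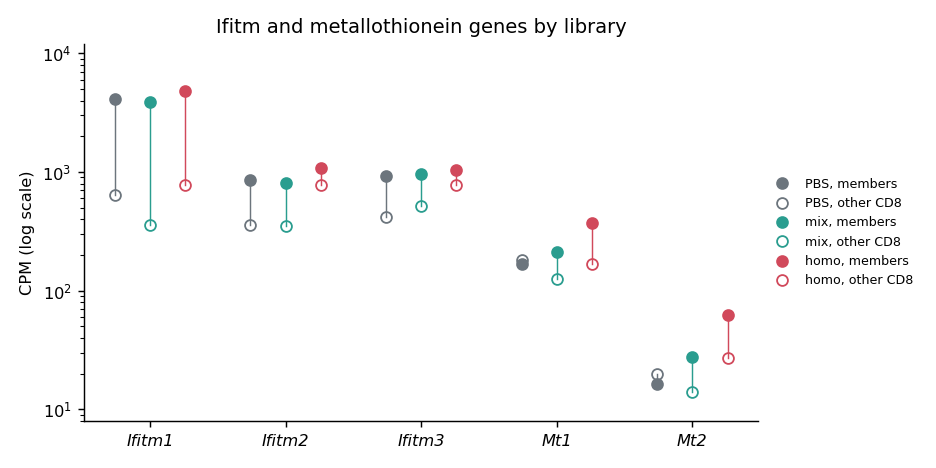
CPM of Ifitm1, Ifitm2, Ifitm3, Mt1 and Mt2 (log y axis) in members (filled) and other gated CD8 cells (open) of each library, joined by a line. The Ifitm genes are higher in members of each library, and Mt1 and Mt2 in members of mix and homo.

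Within members, the libraries were compared by CPM ratio among genes at 50 CPM or more in either, with no test. From PBS to homo, 75 of 2974 genes (2.52%) differed by 2-fold or more, 22 (0.74%) upward and 53 (1.78%) downward. Gzma was at 1079 CPM in homo members and 380 in PBS members (log2 1.51, interval 1.46 to 1.55), and its ratio in the other CD8 cells was larger still at 1.87. Mt2 was higher by 1.95 (1.72 to 2.19) in members and by 0.45 in other cells, and Mt1 by 1.14 (1.06 to 1.21) and -0.10. Cd160, an inhibitory and co-stimulatory receptor gene, was higher by 1.24 in members and 0.79 in others. Klf2 was at 44.7 CPM in homo and 225 in PBS members (log2 -2.33), against -1.02 in others. Gzmg was lower by -2.58, and Gzmb, coding for granzyme B, stood at 1742 against 4062 CPM (-1.22, and -1.54 in others). Of 24 cytotoxic effector genes compared, 1 was at least 1.5-fold higher and 11 lower, where 3.03% and 6.12% of all genes were and 9.15% differed either way. Their median log2 ratio was -0.58 in members and -0.60 in the other CD8 cells. Among the immediate early genes and heat shock genes, 22 in number, 12 were lower by 1.5-fold or more and 0 higher, among them Dusp1 (-2.13) and Hspa1b (-1.92). Their median was -0.63 in members and -0.58 in the other cells. Ifitm1 itself differed by 0.21 within members (interval 0.20 to 0.23).

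Fewer genes passed 2-fold between members of mix and PBS. Of 2899 genes, 15 (0.517%) differed by 2-fold or more, 4 (0.138%) upward in mix and 11 (0.379%) downward. Itgb7, coding for an integrin chain of gut homing, was at 36.7 CPM in mix and 92.7 in PBS members (log2 -1.34, and -0.36 in other cells). Gzma and Gzmk were lower in mix members by -1.22 and -1.25, against -0.53 and -0.61 in others. Gapdh, a glycolysis enzyme gene, was higher by 0.62, and the tyrosine breakdown gene Fah by 0.85. Among 24 cytotoxic effector genes, 6 were lower by 1.5-fold or more and 0 higher, where 0.586% and 0.69% of all genes were and 1.28% differed either way. The median of those genes was -0.087 in members and -0.27 in the other cells. From mix to homo, 72 of 2963 genes (2.43%) differed by 2-fold or more, 26 (0.877%) upward and 46 (1.55%) downward. Xcl1, coding for a chemokine that draws dendritic cells, was at 80.3 CPM in homo and 29.2 in mix members (log2 1.46), against 0.16 in other cells. Tnfrsf9, coding for the activation receptor 4-1BB, was at 277 and 876 CPM (-1.66, and -1.86 in others). Among 13 glycolysis genes, 9 were lower in homo by 1.5-fold or more and 0 higher, where 3.07% and 5.8% of all genes were and 8.88% differed either way. The median log2 ratio of those 13 genes was -0.70 in members and -0.69 in the other cells. The 3 comparisons share libraries and are not independent.

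**Figure D5:**
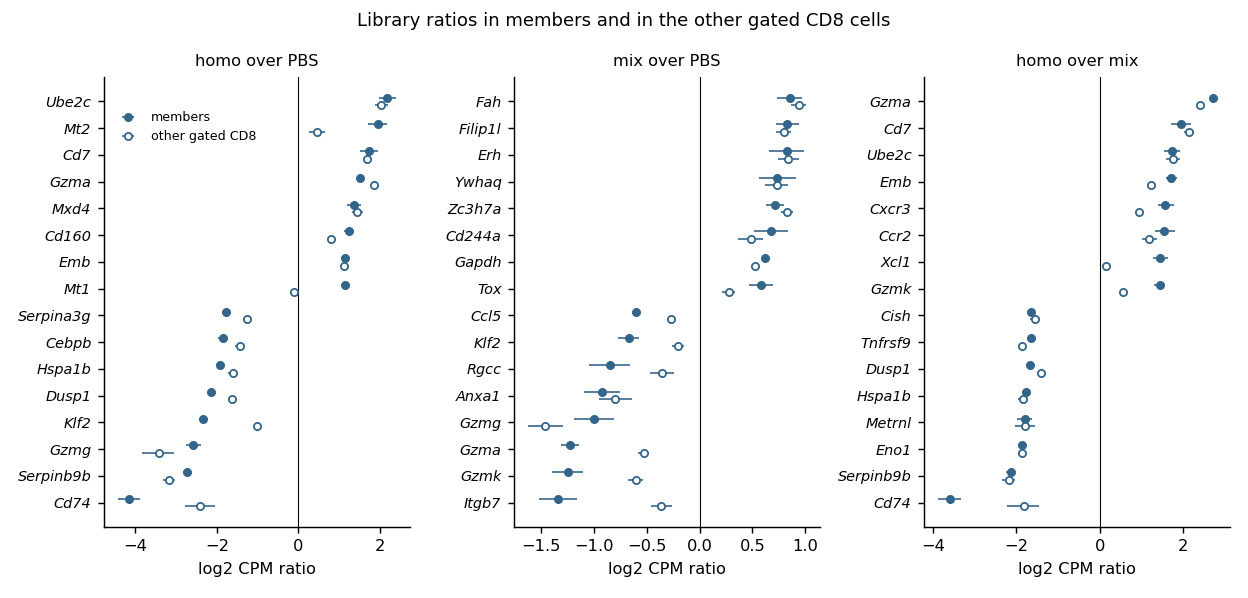
Log2 CPM ratio between libraries (x axis) for the named genes in members (filled) and in other gated CD8 cells (open), with exact 95% intervals of counting error. Mt2 and Mt1 from PBS to homo and Xcl1 from mix to homo lie apart between members and other cells, while Ube2c and Cd7 lie close together.

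T cell receptor variable genes showed which receptors the members used. Among Trbv UMIs of members, Trbv16 took 34.3% in homo, 16.5% in mix and 13.6% in PBS, and 16.9% in the other cells of homo. Trbv20 took 25.04% in mix members and 25.9% in the other cells of mix. A high share of 1 variable gene shows unequal use and does not count clones, since no receptor sequences were assembled here.

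Markers of other cell types were looked at beside these results. Summed over 17 macrophage and monocyte markers, members stood at 5622, 5912 and 3942 CPM in PBS, mix and homo against 5247, 6027 and 4178 CPM in the others. Most of that sum was Ly6c2, which effector CD8 T cells also express, at 5332, 5635 and 3722 CPM in members, followed by Spp1 at 196, 242 and 145 CPM. The macrophage receptor gene Csf1r stood at 1.20, 0.215 and 0.0340 CPM in members and the complement gene C1qa at 2.30, 0.215 and 0.272 CPM. The 14 dendritic markers summed to 215, 141 and 24.0 CPM against 125, 105 and 65.6 CPM, with Clec9a at 0. The 11 neutrophil markers summed to 934, 874 and 1122 CPM against 413, 380 and 806 CPM, a list that holds Ifitm2 and Il1r2 itself. The 10 B and plasma markers summed to 14.7, 13.2 and 14.9 CPM against 32.3, 45.4 and 49.2 CPM, with Jchain among those at 0. The antigen presentation gene Cd74 stood at 84.0, 56.8 and 4.69 CPM in members against 29.1, 19.5 and 5.50 CPM, so it was higher in members of PBS and mix and not of homo. By score, 7.30%, 4.52% and 5.81% of members and 5.52%, 3.599% and 2.84% of other cells ranked as likely doublets, and removing them left the member share at 22.5%, 23.5% and 59.9%. In that refit 1372 genes were called against all other gated CD8 cells, 1136 of them among the 1157 called with those cells kept, and 111 among Pdcd1 and Havcr2 cells, 87 of them among the 89. Libraries shared 131, 105 and 100 barcodes by pair, of which 5, 5 and 6 were members in both.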

How the data were processed

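Single-cell 3' RNA libraries of CD3-sorted MC38 tumour cells were analysed for 3 samples, labelled PBS, mix and homo. The authors deposited raw UMI counts per gene and barcode for 32285 genes, in matrices of called cells. Cell Ranger 7.1.0 wrote them, per the file headers. Per the submitters' processing notes the tools were Seurat 4.1.0 and Cell Ranger 2.1.1, with build mm39. The libraries held 56427870, 49179708 and 65336646 UMIs. Members and gene lists were chosen with earlier results of these data known.

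Counts were summed per library and class. Members and other cells of a library come from the same tumour digest, so the library was a block in edgeR 4.0.16 (quasi-likelihood, TMM, Benjamini-Hochberg); this pairing is by design. Where n = 3 is given it means 3 libraries, 1 each of PBS, mix and homo. The p-values thus rest on how the member difference varied between these groups, with technical spread included. No spread between replicates of 1 group was measured, and whether the libraries came from separate animals is not stated. The 5 rule genes were left out of the tests. Tested on simulated data for members against all other CD8 cells (12187 genes), the fit recovered 66% of 1.5-fold and 93% of 2-fold changes. Among Pdcd1 and Havcr2 cells (10894 genes) it recovered 55% and 93%. Changes were planted only in genes above a minimum mean count, with the same fold in each library and the same spread for all genes. In the real data ratios differed between libraries, so these shares do not give the power of the real fit.

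Genes named for members were the 12 most and 12 least, by the smallest log2 ratio over the 3 libraries among those called with CPM of 50 or more in either class (6 and 6 among Pdcd1 and Havcr2 cells). Between libraries they were the 8 highest and 8 lowest by the interval end nearest 0. Some genes that met these rules are not reported here. Receptor, immunoglobulin, mitochondrial, ribosomal, haemoglobin, sex-linked and unnamed genes were left out. The rule genes and 12 further genes were always named, with up to 4 genes per list. Of 469 list genes 465 were matched, and Aldoa, Mx1, H2az1 and Scart2 were not. Doublets were not removed in the main analysis. As an alternative, the highest Scrublet scores were removed at 0.8% per 1000 kept barcodes. Shares carry exact (Clopper-Pearson) 95% intervals. Other alternatives were gate limits, thinning, depth matching, no low-count filter, no block, leaving out a library, DESeq2 1.42.0, CPM minima and weighting. Python 3.11.15, numpy 2.4.6, scipy 1.17.1, scanpy 1.11.5 and R 4.3.3 were used. Promoter windows came from RefSeq tables of build GRCm38.p6, not the submitters' build, and were used only to show sequence.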

Additional observations from a re-analysis of the deposited data

Results flagged for a closer look

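Several genes differed in direction between libraries, as the log2 CPM ratio of members over other gated CD8 cells, with intervals that cover counting error only; none of these differences was tested. Mt2 was at -0.28 in PBS, 0.98 in mix and 1.22 in homo. Mt1 was at -0.12, 0.78 and 1.12 in that order. Gzma was at 0.38 in PBS and -0.31 in mix. Serpinb9b, a granzyme inhibitor gene, was at -0.15 in PBS, 0.24 in mix and 0.30 in homo. Serpina3g was at 0.0894 in PBS, 0.14 in mix and -0.42 in homo. Zc3h7a was at 0.0825 in PBS and -0.15 in homo. Itgb7 was at 0.20 in PBS, -0.78 in mix and -0.47 in homo. Rgcc was at 0.26 in PBS and -0.24 in mix. Ccr2, a chemokine receptor gene, was at 0.44 in PBS and -0.37 in mix.

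Cycling CD8 barcodes, left out by the limit on Mki67 and Top2a, also passed most often in homo. The Ifitm1 and accessory limits were passed by 241 of 783 of them for PBS (30.8%), 210 of 600 for mix (35.0%) and 854 of 1102 for homo (77.5%). Homo lay above both other libraries, while the exact intervals of PBS (27.6 to 34.1) and mix (31.2 to 39.0) overlapped. These shares were not taken from thinned counts, and a deeper cell passes the gate more easily. These shares rest on the rule genes, and no difference between them was tested.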

How the results depend on the processing

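The share of members was highest in homo under each gate tried and thinned. In the order PBS, mix and homo it was 20.9%, 21.4% and 57.5% with at least 2 Ifitm1 UMIs, 9.70%, 11.9% and 42.3% with 3 of 4 accessory genes, 10.6%, 12.5% and 43.5% without Plac8, and 14.2%, 17.2% and 48.5% without Gstp3. Thinned and gated anew it was 11.7%, 11.7% and 38.1%. Against all other CD8 cells (574 higher, 583 lower), DESeq2 gave 205 and 238, depth matching 177 and 192, leaving cells just outside the gate out 1402 and 1277, no low-count filter 881 lower, and no replicate block 0 and 0 by edgeR (765 genes at unadjusted p under 0.05). Leaving out 1 library gave 119 to 572 higher and 197 to 601 lower. Gzmg turned to -0.23 with depth matching and Gzma to -0.22 with 3 of 4 accessory genes. Among Pdcd1 and Havcr2 cells (47 higher, 42 lower), DESeq2 gave 14 and 14, no low-count filter 104 and 78, no replicate block 0 and 0 (164 genes at unadjusted p under 0.05), leaving cells just outside the gate out 133 and 154, and at least 2 Ifitm1 UMIs 31 higher. Leaving out 1 library gave 20 to 67 higher and 11 to 69 lower. Gzmg turned to -0.0090 with at least 2 Ifitm1 UMIs and Gzma to -0.021 with 3 of 4. With CPM minima of 20 and 200, genes at least 2-fold higher and lower were 46 and 96, then 8 and 19 for homo over PBS, 10 and 26, then 2 and 1 for mix over PBS, and 44 and 82, then 2 and 16 for homo over mix. These counts follow the number of genes compared; for the other shifts the cause was not tested. No paired analysis was possible between libraries because each group had 1 library. Regulatory T cell shares in homo rest on 49 barcodes.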
